A study of Homo sapiens with 2 samples.

Results

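The gene expression of A375 cells was described from 1 array, that of the culture transfected with NC siRNA, a control with no intended human target. A375 is a long-established line of human melanoma cells. All names printed on this array were examined, and 19286 of 43267 gene and transcript names were detected. The study compared it with a second A375 culture in which THOC2, a subunit of the THO complex of mRNA export, was targeted by siRNA. The NC array is 1 of the 2 samples. No comparison with the other array was made beyond a check of the labels.

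The labels gave the harvest at 48 h after transfection, total RNA, and cy3 as the dye. The labels named DMEM as the growth medium, while the methods of the study named RPMI-1640, so the medium is not settled. A lipid reagent carried the siRNA into the cells. No untransfected culture was analysed here, so the state of untreated A375 cells and any response to the transfection cannot be told apart. The title and the description named the NC condition for this sample, while its source field named the THOC2 siRNA condition. The second sample had the opposite conflict. The titles and descriptions were followed. The probes of THOC2 had signals of 136 and 67.3 on the array labelled NC siRNA, and of 40.9 and 35.1 on the array labelled THOC2 siRNA. There was 1 culture and 1 array, so no spread between cultures could be given and no test was made.

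The array was an Agilent 1-colour design with probes of 60 bases. A signal here is the scanner software's processed signal, an intensity after subtraction of the background. A probe was called detected where the software marked it as well above background. A gene was called detected where at least 1 of its probes was, and its signal was the geometric mean over its detected probes. Of 58201 probes, 24618 (42.3%) were detected. Of 18639 protein-coding genes, 12883 (69.1%) were detected, and this share is the background for every list below. A probe's brightness depends on its own sequence, so an order of signals is not an order of transcript numbers. A gene is called bright below where its signal lay among the brightest 10% of detected genes, at 3267 or more. This held for 1521 of the 18639 protein-coding genes (8.16%). All 1521 are among the 12883 detected, so a count of bright among detected members is to be read against 1521 of 12883. It is called dim where its signal was under 64. A signal of at least 64 was reached by 54.7% of protein-coding genes. Not detected means not well above background, and it does not show that a transcript was absent. In RNA of a whole culture, fewer cells expressing a gene and less RNA per cell cannot be told apart.

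The detection mark separated 2 parts of the signal range with little overlap. The lowest signal of a detected spot was 14.7, and the highest of an undetected spot was 18.0. None of 295 unflagged negative control spots was detected, which allows a share of up to 1.24% (exact binomial 95% interval). Their signals reached 3.75, and the median undetected spot lay at 3.13. The bound of 1.24% holds for the negative control spots alone. Some spots of other control probes were detected, as given at the end. Of the 300 probes printed in 10 spots, those over 512 had a median coefficient of variation of 2.39%, and those between 16 and 64 one of 17.0%. Probes of 1 gene differed far more than spots of 1 probe. Over 3573 protein-coding genes with at least 2 detected probes, the brightest probe exceeded the dimmest by a median of 4.82-fold. Of 6390 protein-coding genes with at least 2 probes, 2011 (31.5%) had both detected and undetected probes. For a detected gene with several probes, the text gives each probe's signal or the number of probes detected.

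**Figure D1:**
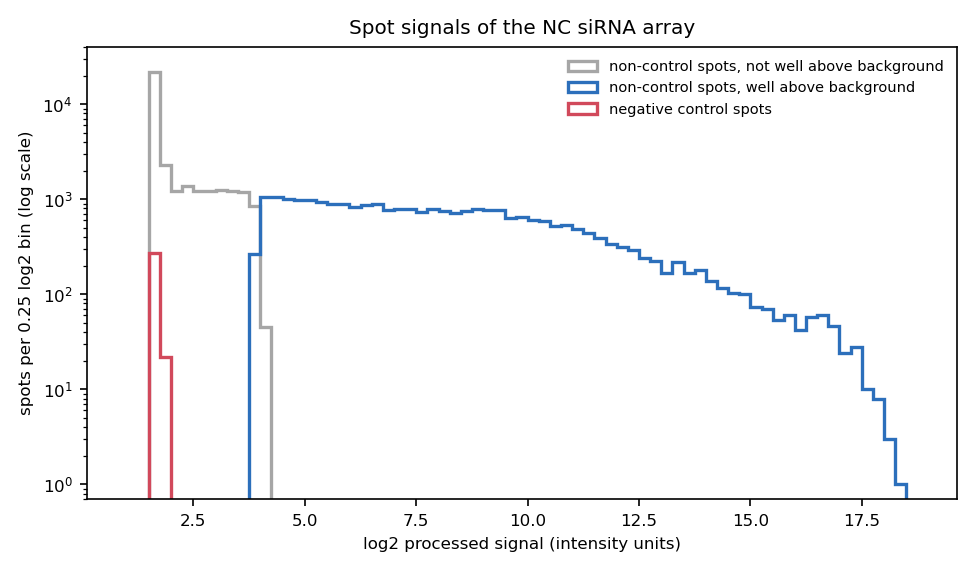
Number of spots (y axis, log scale) in bins of log2 processed signal (x axis, intensity units) on the NC siRNA array. Outlined are non-control spots that were or were not well above background and the negative control spots. Detected spots began at a signal of 14.7, and all negative control spots lay at or under 3.75.

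Melanocytes arise from the neural crest. The transcription factors SOX10, PAX3 and MITF specify them, and MITF drives the enzymes and structural proteins of the melanosome, the organelle that makes pigment. Melanoma cells can keep this programme or lose parts of it, and cells that lose it often carry genes of a mesenchymal, undifferentiated state. MITF binds the E-box CATGTG upstream of several pigment genes.

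The bases before the start of a few pigment genes are shown because these genes share that E-box and were undetected or near the limit in A375 cells, with OCA2 as a detected gene. Each sequence is from RefSeq (GRCh38.p14), 250 bases long, 5′ to 3′ on the gene's strand, and ends at the base before the start. Capitals mark CATGTG or its reverse complement CACATG. TYR lay at chr11:89177625-89177874 (+), TYRP1 at chr9:12693135-12693384 (+), DCT at chr13:94479683-94479932 (-) and OCA2 at chr15:28099316-28099565 (-).
TYR: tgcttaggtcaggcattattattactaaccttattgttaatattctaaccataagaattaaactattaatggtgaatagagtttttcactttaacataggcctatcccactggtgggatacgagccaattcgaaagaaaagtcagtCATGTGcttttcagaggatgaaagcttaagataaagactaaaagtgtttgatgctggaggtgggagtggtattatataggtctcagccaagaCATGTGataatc
TYRP1: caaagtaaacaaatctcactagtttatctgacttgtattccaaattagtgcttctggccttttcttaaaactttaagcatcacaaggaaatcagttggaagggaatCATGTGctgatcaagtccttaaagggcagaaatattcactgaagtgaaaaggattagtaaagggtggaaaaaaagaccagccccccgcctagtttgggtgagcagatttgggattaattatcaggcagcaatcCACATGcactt
DCT: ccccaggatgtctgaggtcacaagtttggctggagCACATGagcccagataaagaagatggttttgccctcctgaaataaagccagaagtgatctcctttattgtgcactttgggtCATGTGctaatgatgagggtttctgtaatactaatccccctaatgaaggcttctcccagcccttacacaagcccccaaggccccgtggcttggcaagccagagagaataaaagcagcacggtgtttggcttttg
OCA2: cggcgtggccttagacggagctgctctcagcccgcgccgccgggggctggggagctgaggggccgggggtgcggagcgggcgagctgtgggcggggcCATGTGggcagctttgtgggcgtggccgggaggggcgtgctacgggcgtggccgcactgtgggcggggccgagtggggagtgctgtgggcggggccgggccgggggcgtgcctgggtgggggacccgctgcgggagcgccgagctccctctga
The first 3 genes each held 2 matches, and OCA2 held 1. The nearest match began 12 bases before the start in TYR, 11 in TYRP1, 134 in DCT and 153 in OCA2. For DCT, which has 2 starts in the table, the start with matches is shown. Of the 20 pigment and melanosome genes, 17 had such a sequence in the table, and 10 of them held the motif before at least 1 start. These were 5 of 9 detected genes and 5 of 8 undetected genes. Over all 27305 genes in the table the share was 11.5%. A match is a run of letters, and binding was not measured.

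Of the pigment and melanosome genes, 10 of 20 were detected, against 69.1% of protein-coding genes. The enzymes and structural proteins that define pigment production were among the undetected. All 3 probes of TYR, tyrosinase, the rate-limiting enzyme of melanin synthesis, lay at 2.98, 2.99 and 3.50. TYRP1, a tyrosinase-related enzyme, lay at 3.20 and 5.26. MLANA, the melanosome antigen also called MART-1, lay at 2.94 and 3.12. These signals were within or just above the range of the negative control spots. With a limit at the 99th percentile of those controls, a signal of 3.68, 17 of the 20 (85%) were over it, against 81.0% of protein-coding genes, so the list was not below the background share at this lower limit. TYR and MLANA were still not over it. PMEL, the protein of melanosome fibrils, lay at 13.1, short of the limit. SLC45A2, SLC24A5, GPR143, MLPH, TRPM1 and CAPN3 were also undetected. DCT, the third melanin enzyme, was detected at 18.0, the dimmest of the list, on the single probe at chr13:95095746-95095805 of hg19. The detected members were mostly genes of organelle transport that many cell types share. They were led by CD63, a tetraspanin of late endosomes and melanosomes, at 79953. BLOC1S1, a subunit of a sorting complex, had 1862, and the small GTPases RAB38 and RAB32 had 1205 and 460. OCA2, an ion transport protein of the melanosome, had 445 on 1 probe and 3.01 on the other. The next member was the motor protein MYO5A at 157.

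The transcription factors above the pigment genes were detected. Of 16 melanocyte lineage regulators, 11 were detected, near the background share, and only 5 of them reached 64. SOX10 was the only bright one, at 6196 on its probe at chr22:38369089-38369148 of hg19. MITF was detected by 2 of 3 probes, at 274 and 102, with the third at 6.19. PAX3 was detected by both probes, at 307 and 76.5. SOX10 was thus the single bright regulator, and the MITF signal was moderate and differed by probe. MC1R, the receptor of melanocyte-stimulating hormone, had 1632 on 1 probe and 4.74 on the other. LEF1, a transcription factor of the Wnt pathway, had 859. The detected regulators under 64 were EDN1, SNAI2, TFAP2B, ZEB2, KIT and EDN3, from 40.2 down to 23.4. Of these, EDN1 and EDN3 were detected by 1 of 2 probes and ZEB2 by 1 of 3. KIT, the receptor for stem cell factor, was detected by 1 of 3 probes, at 25.6. Undetected were TFAP2A, KITLG, EDNRB, POMC and ASIP, that is, a neural crest factor, the ligand of KIT, an endothelin receptor, the precursor of melanocyte-stimulating hormone and the antagonist of MC1R. The probe of EDNRB, at 16.5, lay in the range where detected and undetected spots overlapped.

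Neural crest and Schwann cell genes were detected in 15 of 20 cases. MIA, a protein secreted by melanoma cells, was the bright member at 59808. CSPG4, a melanoma surface proteoglycan, differed by probe, at 20419 and 45.8. NES, nestin, an intermediate filament of neural progenitors, had 1669 and 453. NGFR, the low-affinity nerve growth factor receptor of neural crest stem cells, had 568. FOXD3, an early neural crest factor, had 450, and the receptor ERBB3 had 2759, 638 and 20.2 on its 3 probes. S100B, a clinical melanoma marker, had 199 on 1 probe and 9.71 on the other. SOX9, MBP, GFAP and NTRK2 were undetected, among them the factor most related to SOX10 and markers of myelin and astrocytes.

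Genes of the undifferentiated melanoma state were nearly all detected, 19 of 20, and 5 were bright. VIM, vimentin, had 54790, and the receptor tyrosine kinase AXL had 23189. TGFBI, a matrix protein induced by TGF-beta, had 11622, and SPARC, a matricellular protein, had 5252. FOSL1, a subunit of the AP-1 transcription factor, had 3881. The sixth was CCN1, a matricellular protein, at 2973. So AXL and other genes of this state were bright in the same RNA in which SOX10 was bright and the pigment enzymes were undetected or dim. TGFB2 was undetected.

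**Figure D2:**
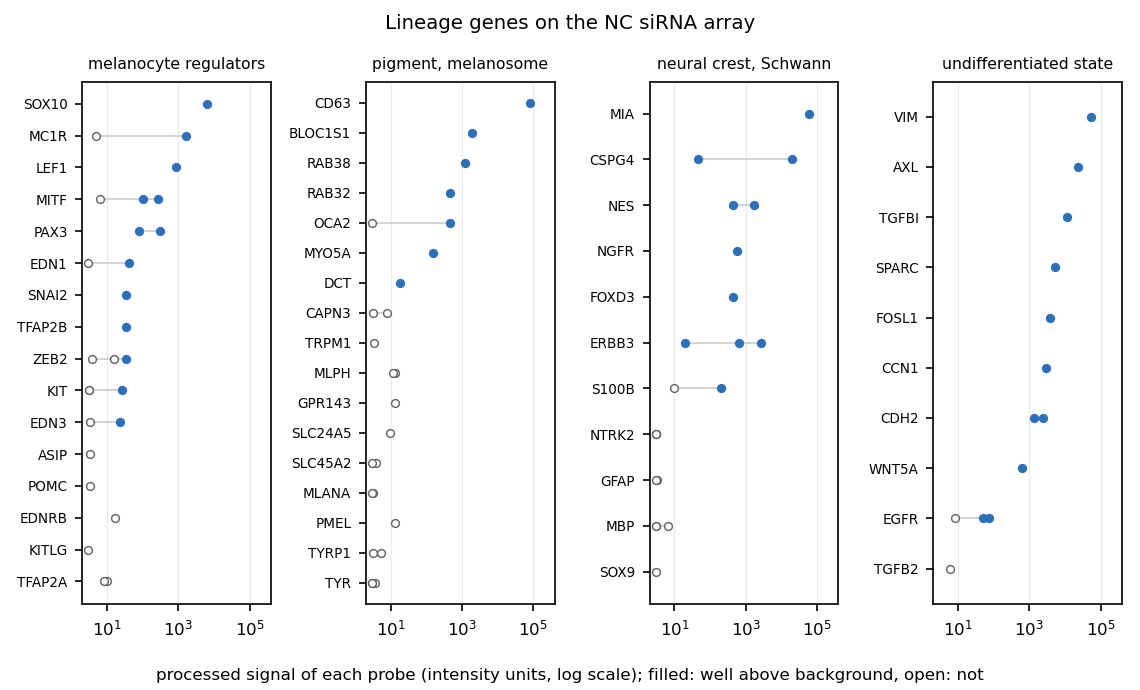
Processed signal of each probe (x axis, intensity units, log scale) for genes of 4 lineage lists that the text names, with detected genes ordered by signal on the y axis. Filled points were well above background and open points were not, and a line joins probes of 1 gene. The pigment genes from CAPN3 down to TYR have no filled point, while of the undifferentiated state genes drawn only TGFB2 has none.

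Cancer-testis antigens are proteins of the germ line that many melanomas express. Of the 22 listed, 17 had a probe under their symbol here, and 15 of these were detected. XAGE1A had 33966, CSAG1 10791 and CTAG2 9433. MAGEA6 had 19164 and 3790, MAGEA4 5492 and MAGEA12 4550. In all, 7 of the 15 were bright. The probes of XAGE1A, CTAG2 and MAGEA6 list transcripts of more than 1 gene in the array annotation, so these signals cannot be assigned to 1 family member. PRAME, an antigen outside these X-linked families, had 699, 434 and 2.98. MAGEB2 was the dimmest detected at 35.0, and SSX1 and GAGE1 were undetected.

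Markers of other cell types checked what else the RNA held. Of 12 fibroblast markers, 3 were detected, and none was bright. TWIST2 had 566 and 21.3, DCN 62.4 and 3.17, and PDGFRB 168 and 21.5. The fibroblast collagens COL1A1, COL1A2 and COL3A1, and LUM, PDGFRA, POSTN, FAP, THY1 and TCF21, were undetected. Of 18 keratinocyte and epithelial markers, 7 were detected. KRT10 had 32306 and KRT18 29881 and 6344. CLDN4, a claudin of tight junctions, had 4558 on 1 probe and 3.15 on the other, so its level is unsettled. KRT8 had 2223, 824 and 14.8, the last undetected. DSP, a desmosome protein, had 528 and 116, and KRT14 83.9 and, undetected, 11.9. The dimmest was KRT19, at 18.95. Of the undetected markers, CDH1 at 3.09, EPCAM at 3.18 and TP63 at 2.98 were at the level of the negative controls. KRT5, KRT1, DSG3, IVL, FLG, GRHL2, ESRP1 and OVOL1 were undetected too.

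Endothelial markers were detected in 7 of 12 cases, of which 2 reached 64. ROBO4, a guidance receptor of vessels, had 1786 and EGFL7 400, while PECAM1 was the dimmest, at 16.2 on 1 of 3 probes. TEK, TIE1, CLDN5, EMCN and ERG were undetected. Leukocyte markers were detected in 8 of 15 cases, again with 2 over 64. CD74, the invariant chain of class II antigen presentation, had 903, and FCER1G had 313 and 12.01. TYROBP, SPI1, PTPRC, CD3E, CD14 and LAPTM5 lay from 37.3 down to 23.0, with PTPRC detected by 1 of 5 probes. The B and T cell genes CD3D, CD2 and MS4A1, and ITGAM, NKG7 and GNLY, were undetected. Neuron markers were detected in 6 of 12 cases, with TUBB3, a tubulin of neurons and many tumours, at 5932. RBFOX3 had 425 on 1 of 2 probes, NEFL 405 and SLC17A7 83.2. SYT1 had 60.5 as the mean of 2 probes, and SNAP25 was the dimmest at 42.4. NEFM, MAP2, ELAVL4, STMN2, SYP and GRIA2 were undetected. Hepatocyte and muscle markers were detected in 4 of 16 cases, with SERPINA1 at 2035 and 4.88, DES at 193, MYOG at 15.8, and APOA1 at 15.7 and, undetected, 3.28. ALB, TTR, AFP, MYH7 and MYOD1 were undetected. All 20 housekeeping genes were detected, between 508 for TBP and 158492 for RPLP0, the mean of probes at 210139 and 119539, and 16 were bright. Fibroblast, hepatocyte and muscle, and epithelial markers had 25%, 25% and 38.9% detected, against 69.1% of protein-coding genes. The endothelial share, 58.3% of 12 genes, and the neuron share, 50% of 12 genes, were nearer to it. The leukocyte share depended on the limit. It was 53.3% here, but 86.7% (13 of 15) at the signal limit of 3.68, against 81.0% of protein-coding genes, and 13.3% (2 of 15) with a probe of at least 64, against 56.1%.

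**Figure D3:**
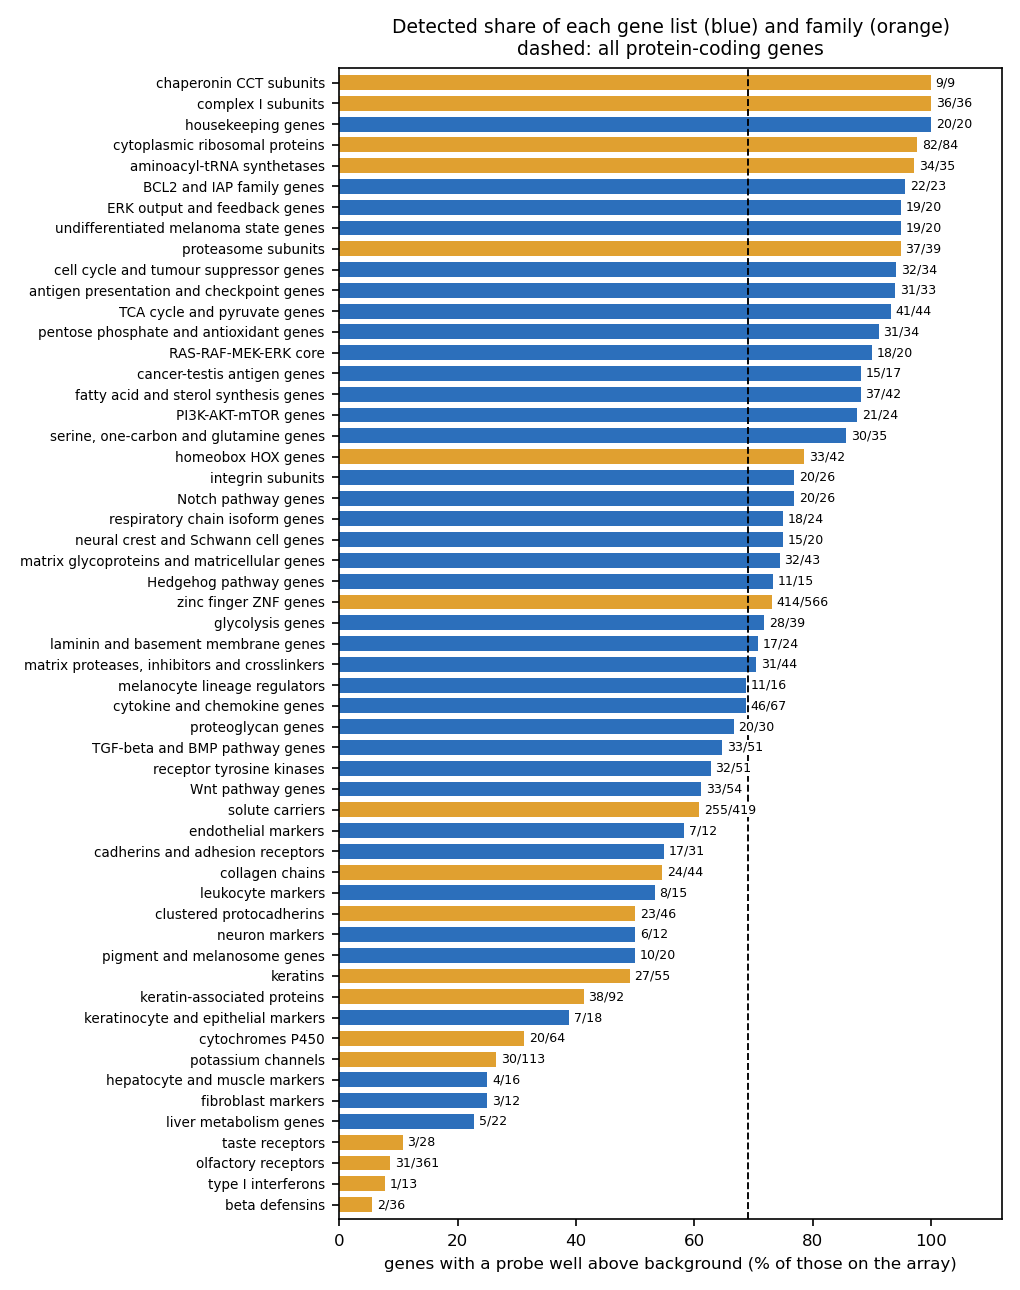
Share of genes on the array with a probe well above background (x axis, %) for each gene list and family (y axis), with the counts beside each bar and the share of all protein-coding genes, 69.1%, as a dashed line. Blue bars are lists of named genes and orange bars are families found by name. Beta defensins, olfactory and taste receptors, type I interferons and liver metabolism genes are at the bottom, and complex I and CCT subunits are at 100%.

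Growth signals reach melanoma cells through receptor tyrosine kinases, which activate RAS, the RAF kinases, MEK and ERK. ERK then induces transcription factors and its own inhibitors. A375 carries an activating BRAF mutation, as is known of this line, and an array probe cannot read it.

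Of 51 receptor tyrosine kinases, 32 were detected and 20 reached 64. AXL was the brightest, and MET, the receptor of hepatocyte growth factor, followed at 3473. RYK, a Wnt co-receptor, had 3167, EPHA2, an ephrin receptor, 1843, and TYRO3, of the AXL family, 929. DDR1, a collagen receptor, had 1282 on 1 probe and 3.88 on the other. Only AXL and MET were bright. ERBB2 had 1197 and 78.8 on its 2 probes. EGFR was detected by 2 of 3 probes, at 75.7 and 48.8, with the third at 8.07, and the dimmest detected receptor was EPHB6 at 21.6. Undetected were 19 receptors, among them ERBB4, MERTK, PDGFRA, FLT3, FGFR2, ALK, RET and ROS1. MERTK is the member of the AXL family that was not detected.

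Of the RAS-RAF-MEK-ERK core, 18 of 20 genes were detected. BRAF had 351 on its probe at chr7:140434419-140434478 of hg19, and ARAF 1173 and 397. NRAS had 534 and 161, and HRAS 1250. The kinases MAP2K1 and MAP2K2 had 2827 and 1789, and the ERK gene MAPK3 had 315. These genes of the cascade were therefore detected but not bright, and YWHAB, an adaptor protein of RAF kinases, was the bright one at 8598. The adaptor SHC1 had 4726 and 215, and the adaptor GRB2 984. The exchange factor SOS1 was the dimmest, at 18.3 on 1 of 2 probes, and the scaffolds KSR1 and KSR2 were undetected.

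ERK output and feedback genes were detected in 19 of 20 cases, and 7 were bright. IER3, an immediate early gene, had 47550 and 14048 on its probes. EGR1, an immediate early transcription factor, had 21708, and DUSP6, the phosphatase that removes phosphate from ERK, 18306. SPRY2, an inhibitor of receptor signalling, had 13162, and PHLDA1 5016 and 4.80. CCND1, cyclin D1, had 3483. Of the 20 core genes, 1 was bright, YWHAB. DUSP4, DUSP5 and the ETS factor ETV4 had 1691, 1497 and 1689. SPRY1 was the dimmest, with 78.1 and 28.9, and SPRED3 was undetected.

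**Figure D4:**
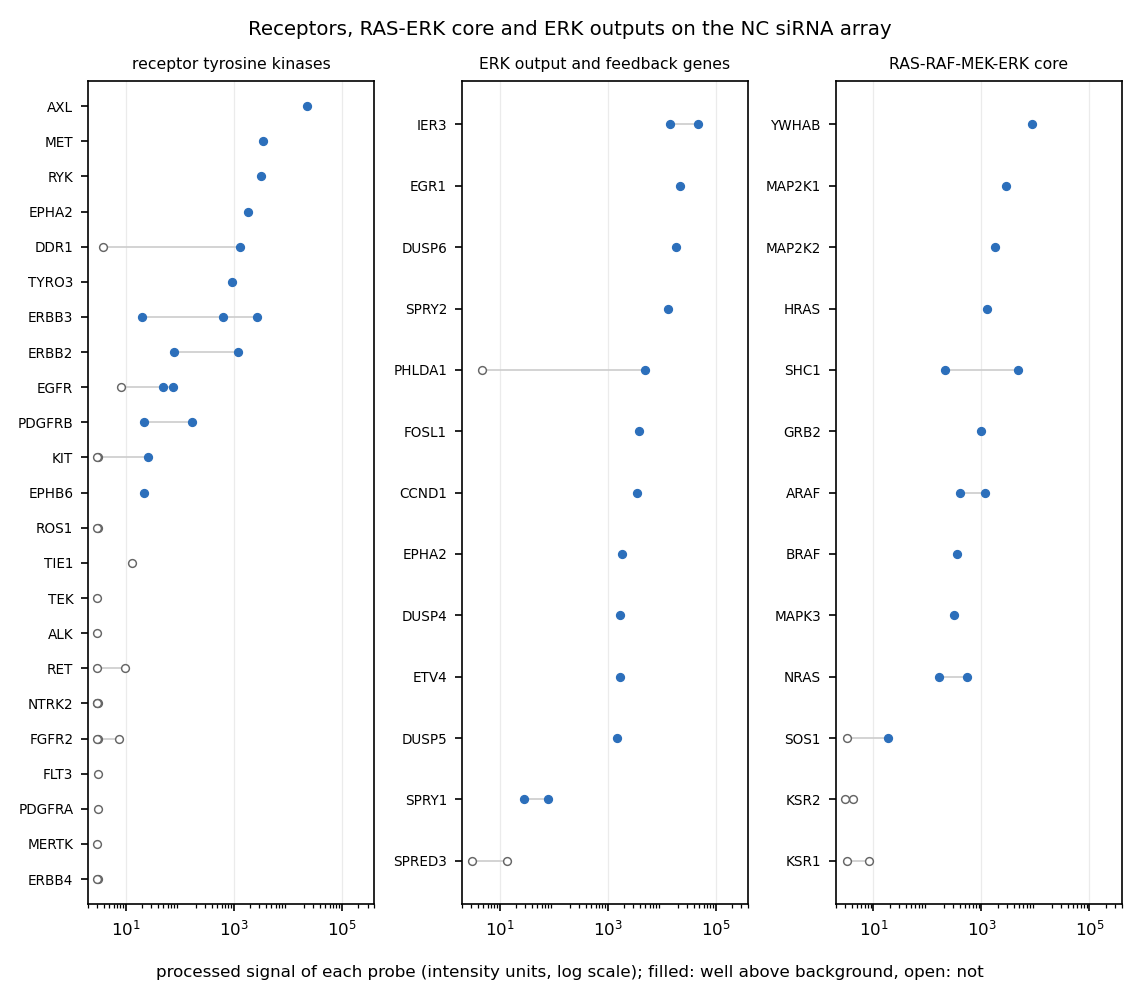
Processed signal of each probe (x axis, intensity units, log scale) for receptor tyrosine kinases, ERK output genes and the RAS-ERK core that the text names (y axis, detected genes ordered by signal). Filled points were well above background and open points were not. AXL and MET lead the receptors.

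The PI3K-AKT-mTOR list was detected in 21 of 24 cases. EIF4EBP1, a translation repressor under mTOR control, had 25271, and the regulatory subunit PIK3R2 7073. RPTOR, AKT1 and RHEB lay from 1874 to 561. INPP5D was the dimmest at 22.9, and PIK3CG, PIK3R3 and PIK3R5 were undetected.

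Developmental pathways were detected in part. Of 54 Wnt pathway genes, 33 (61.1%) were detected, against 69.1% of protein-coding genes. Intracellular members and antagonists led: DVL1 with 16925 and 806, DKK1, a secreted antagonist, 1949, CTNNB1, beta-catenin, 5044 and 317, DVL2 1021 and the receptor FZD8 922. Of the ligands, WNT5A, of the non-canonical branch, had 620, and WNT3A was the dimmest detected member, at 29.1 on 1 of 2 probes. LEF1, also a member of this list, had 859. AXIN2, LGR5, NKD1 and RNF43 were undetected, as were WNT1, WNT2, WNT4 and WNT11. Of 26 Notch pathway genes, 20 were detected. NCSTN, a subunit of gamma-secretase, had 3987, HES4 3018, NOTCH2 3169 and, on a probe that lists 2 genes, 1757, the ligand JAG1 1627 and the DNA-binding factor RBPJ 1375 and 661. MAML1, a co-activator, had 59938 and 151, a gap that leaves its level unsettled. The dimmest was DLL1, at 23.4. DLL4, MAML2, HES5, HEY2, HEYL and NRARP were undetected.

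Of 51 genes of the TGF-beta and BMP pathway, 33 were detected. INHBA, the subunit of activin A, had 58384 as the mean of 10 spots. ID1, a BMP target, had 4700, GDF15, a stress-induced factor, 4425, and FST, follistatin, the antagonist of activin, 3964. Both the activin subunit and its antagonist were thus bright. LTBP3 had 1617 and 3.11, BMP2 1605, and LTBP1 was the dimmest, at 15.0 on 1 of 2 probes. Among the receptors and mediators, TGFBR1, BMPR2 and all 3 probes of SMAD2 were undetected, while TGFBR2 had 722 and 3.04, SMAD3 778 and SMAD4 538 and 87.2. Hedgehog genes were detected in 11 of 15 cases and none was bright. The transducer SMO had 629 and GLI3 426, while the target PTCH1 had 46.0 on 1 of 3 probes and the target GLI1 33.5. SHH, IHH and BOC were undetected.

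Cytokine, chemokine and growth factor genes were detected in 46 of 67 cases, and 11 were bright. MIF, a factor made by many cell types, had 100676. IL24, a cytokine of the IL10 family, had 65872 and 10596. The chemokine CCL3 had 17865, CSF2, the granulocyte-macrophage factor, 15701, IL11 13659, and CXCL1 29337 and 3495. So several inflammatory factors were bright in this transfected culture. CXCL8, interleukin 8, had 3846. Interferons and their targets were set beside these, since the cells had been transfected with RNA. IFNB1 had 28.4 and IFNL1 1933, while the chemokine CXCL10 had 39.98 and 38.3 and CCL5 1195. PDGFB was the dimmest member, at 19.8. Undetected were 21 genes, among them IFNG, IL2, IL4, IL17A, IL33, HGF, EGF and CXCL9. HGF, the ligand of the bright receptor MET, was thus not detected in the same RNA.

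Antigen presentation and checkpoint genes were detected in 31 of 33 cases. HLA-G had 61415, HLA-C 42429 and 20856, HLA-E 52872 and 8210, and B2M, the light chain of class I molecules, 16083. Class I heavy chain genes are closely related in sequence, and whether the probes of HLA-G, HLA-C and HLA-E match other HLA genes was not tested. Probes of HLA-B, HLA-F and HLA-DRB1 list transcripts of other HLA genes. PSMB10, a subunit of the immunoproteasome, had 16777. Class II genes, which few cell types outside the immune system express, were detected, with HLA-DRB1 at 10647, HLA-DRA at 2723, and their regulator CIITA at 1549 and 11.8. CD274, the checkpoint ligand PD-L1, had 73.6 and 18.6. CD86 was the dimmest at 27.9, and PDCD1LG2 and CD80 were undetected.

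Cell cycle and tumour suppressor genes were detected in 32 of 34 cases. The kinase CDK4, the partner of cyclin D1, had 16261, BIRC5, survivin, 7667, CCNE1, cyclin E1, 3426, and CDK6 1802. CDKN1C, an inhibitor of cyclin-dependent kinases, had 1618, and CDKN2A, the locus of p16 and ARF, 2259 and 468. RBL1 was the dimmest, at 31.6 on 1 of 2 probes. CDKN2B, next to CDKN2A on chromosome 9, and CCND2 were undetected. BCL2 and IAP family genes were detected in 22 of 23 cases. The BH3-only genes PMAIP1 and BBC3 had 3972 and 3915 and BID 4129 and 3776, and the inhibitors of death BIRC3 and MCL1 had 3183 and 3034. BCL2 itself was the dimmest, at 37.9 and 20.5, whereas BCL2A1, a melanoma survival gene driven by MITF, had 3510 and 524. BIRC8 was undetected.

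The matrix around cells consists of basement membrane, fibrillar collagen, glycoproteins and proteoglycans. Integrins bind it and proteases cut it. Of 24 laminin and basement membrane genes, 17 were detected, near the background share, and 5 were bright. COL4A2, a type IV collagen chain, had 36342, LAMB3 15041, AGRN, agrin, 25451 and 3300, LAMB2 10863 and 4262, LAMC1 5076 and COL18A1 2777. The alpha chain LAMA3, a partner of LAMB3 in the laminin of epithelial basement membranes, was the dimmest, at 17.1 on 1 of 2 probes. LAMB4, LAMC3, COL4A3, COL4A4, COL4A6, NID2 and COL15A1 were undetected. Of 44 collagen chains in all, 24 were detected. The brightest were COL9A3 at 44019, COL4A2, and COL6A1 at 10730.

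Of 43 matrix glycoproteins and matricellular genes, 32 were detected. LGALS1, galectin 1, had 119995, IGFBP3, which binds insulin-like growth factors, 15596, and EMILIN1 8607. TGFBI was given above, and LGALS3 had 10938 and 3959 and TNC, tenascin C, 5542. FN1, fibronectin, a main matrix protein of fibroblasts, was dim at 25.96 on its single probe. MATN1 was the dimmest, at 18.8 on 1 of 2 probes. SPP1, POSTN, FBN1, FBN2, IGFBP5 and COMP were among 11 undetected. Of 30 proteoglycan genes, 20 were detected and only SDC4, syndecan 4, was bright, at 20546. SDC1 had 3167, GPC1 2494, SPOCK1 782, and CD44, the receptor of hyaluronan, 9213 and 73.3. SRGN was the dimmest at 18.0, and VCAN, LUM, BCAN and SDC2 were among the undetected.

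Of 26 integrin subunits, 20 were detected. ITGA5, the alpha chain of the fibronectin receptor, was the bright one at 4720. ITGA3 had 2692, ITGA7 1515, ITGB5 1393, ITGB3 975 and ITGAE 967. The subunits of the vitronectin receptor of melanoma, ITGAV and ITGB3, were thus both detected, ITGAV at 517. ITGB1, the partner of most alpha chains, had 280 on 1 probe and 2.99 on the other. ITGA4 was the dimmest, at 21.2 on 1 of 3 probes, and ITGA2B, ITGA8, ITGAD, ITGAL, ITGAM and ITGB6 were undetected. These include chains of platelets, leukocytes and epithelia, but other such chains, among them ITGB3 of platelets and ITGAE of leukocytes, were detected.

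Of 44 matrix proteases, inhibitors and crosslinkers, 31 were detected and 6 were bright. TIMP1, an inhibitor of metalloproteinases, had 31900, PLOD3, a collagen lysyl hydroxylase, 31587, and SERPINE2, a serine protease inhibitor, 17873. The gelatinase MMP9 had 14249, the collagenase MMP1 13310 as the mean of 10 spots, and TIMP2 5211. MMP10 had 1619, and the gelatinase MMP2 470. Within the cluster of metalloproteinase genes on chromosome 11, MMP1 and MMP10 were detected and MMP12 was dim at 20.1, while MMP3, MMP7, MMP8, MMP13, MMP20 and MMP27 were undetected. MMP11 was the dimmest at 16.6. LOX, LOXL1, TIMP4, PLG and FAP were undetected as well.

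**Figure D5:**
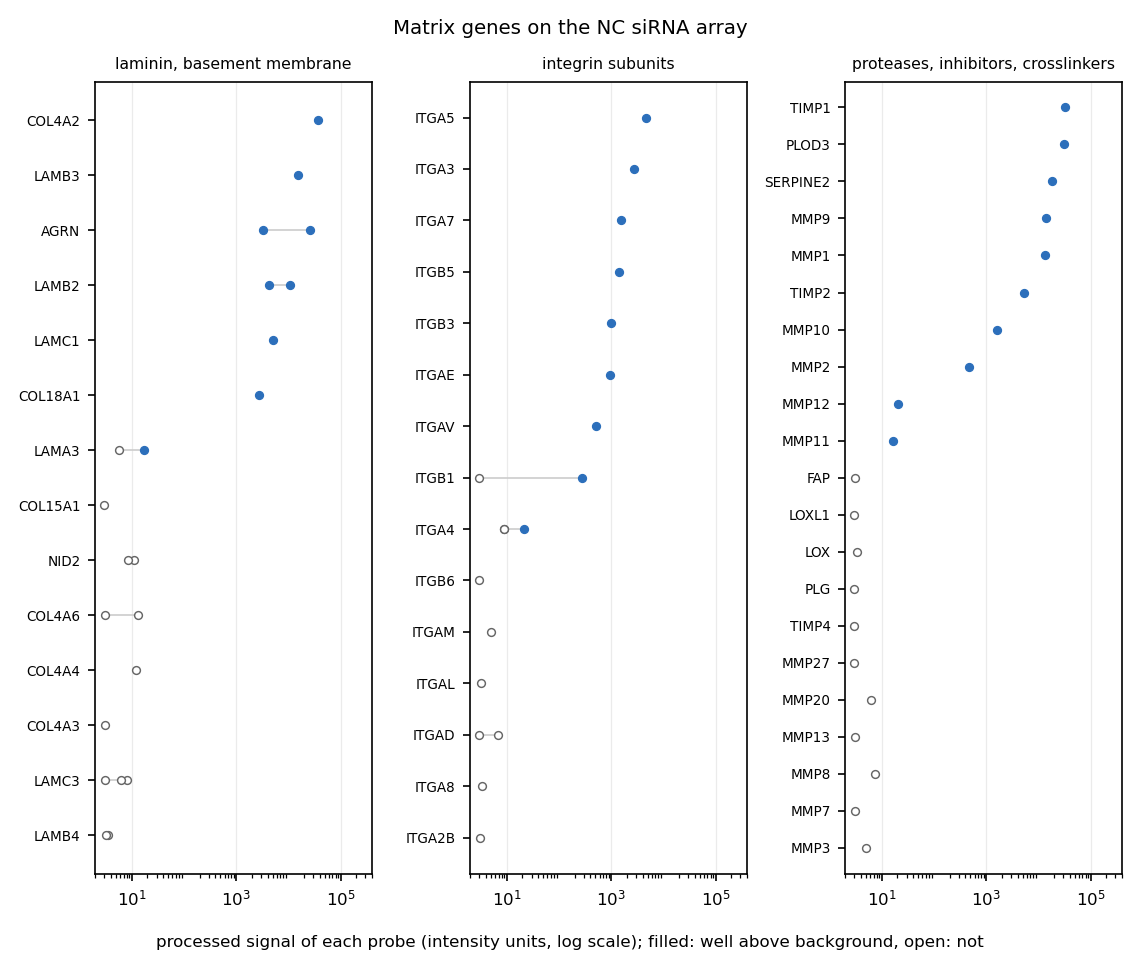
Processed signal of each probe (x axis, intensity units, log scale) for basement membrane genes, integrin subunits, and proteases with their inhibitors and crosslinkers that the text names (y axis, detected genes ordered by signal). Filled points were well above background and open points were not. COL4A2, ITGA5 and TIMP1 lead the panels, and ITGB1 has 1 filled and 1 open point.

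Of 31 cadherins and adhesion receptors, 17 were detected. CD151, a tetraspanin that binds integrins, had 39873, ICAM1 4434, MCAM, a melanoma adhesion molecule, 3278, and CD9 2140. N-cadherin, CDH2, had 2410 and 1314, while E-cadherin and P-cadherin, CDH1 and CDH3, were undetected at 3.09 and 5.42. VCAM1 was undetected at 2.92. CDH5 was the dimmest detected, at 17.0.

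Metabolic genes were described by the isoforms that different tissues use. Of 39 glycolysis genes, 28 were detected and 13 were bright. GAPDH had 85187, ENO1 28021, TPI1 24620, PGK1 21701, LDHB 39535 and 11751, and ALDOA 18698. The forms used in most cell types were detected, and most forms of liver, muscle or germ line were not, with ENO3 at 617 and LDHC at 169 as exceptions. PKM had 17140, while the liver pyruvate kinase PKLR was undetected at 6.62. The aldolases ALDOA and ALDOC were detected. The hexokinase HK1 had 1726, HK2 had 1448 on 1 probe and 2.95 on the other, and HK3 was undetected. Of the glucose transporters, SLC2A1 had 3709 and SLC2A2 and SLC2A4 were undetected. FBP1 and FBP2, of the reverse pathway, PGK2 and GAPDHS, of the germ line, and PFKFB1 and PGAM2 were undetected.

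Of 44 TCA cycle and pyruvate genes, 41 were detected. The malate dehydrogenase MDH2 had 17480, MDH1 15518 and 5872, PDHA1 5991 and 6.84, CS, citrate synthase, 12201 and 2832, and SDHB 3743. PDK4, a brake on pyruvate dehydrogenase, was the dimmest at 22.4. PDHA2, the testis form, PCK1, the cytosolic gluconeogenic enzyme of liver, and PPARGC1A, a coactivator of mitochondrial genes that MITF drives in some melanomas, were undetected. The mitochondrial form PCK2 had 1254 and 113. Of 24 respiratory chain isoform genes, 18 were detected and 12 were bright, led by COX6A1 at 101600 and COX7A2 at 45503. COXFA4 had 29200, COX8A 64884 and 10408, COX4I1 23484 and SLC25A5 21331. UCP2 was the dimmest at 35.4. The tissue forms COX4I2, COX6A2, COX7A1, COX8C, SLC25A31 and UCP1 were undetected. COX7B2, a form of the testis, was detected at 1124. COX6B2, another, had 18.1 on the probe that lists it alone, near the limit. Its other probe, at 8715, lists transcripts of 4 genes, so that signal cannot be assigned to COX6B2.

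Serine, one-carbon and glutamine genes were detected in 30 of 35 cases, all 30 over 64, and 11 were bright. ASNS, asparagine synthetase, had 70276. GOT2, a transaminase, had 30055, SHMT2, the mitochondrial serine hydroxymethyltransferase, 24815, and PSAT1, of serine synthesis, 14853. MTHFD2, of the mitochondrial folate cycle, had 12948, and the amino acid transporter SLC7A5 12810. The cytosolic form SHMT1 was the dimmest of the list, at 145 and 85.7. MTHFD2L, ALDH1L1, GLS2, GPT and PRODH were undetected. GLS2, the liver-type glutaminase, lay at 2.99.

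Of 42 fatty acid and sterol genes, 37 were detected. ACADVL, of fatty acid oxidation, had 21093, FDPS 8072, FADS1 4487, MVK 3777 and FASN, fatty acid synthase, 3127. SCD5 was the dimmest, at 29.1 and 22.4 on 2 of 4 probes. ELOVL2, ELOVL3, IDI2 and SC5D were undetected. Of 34 pentose phosphate and antioxidant genes, 31 were detected and 13 were bright. FTH1, ferritin heavy chain, had 98280, 55959 and, on a probe that also lists a pseudogene, 130506, TKT, transketolase, 38822, GPX1 57166 and 19698, TXN, thioredoxin, 26061, PGLS 23393 and PRDX1 27002 and 16470. GPX2 was the dimmest at 16.8, and TKTL2, GPX5 and GPX6 were undetected. NFE2L2, the transcription factor of the antioxidant response, had 18.2 on its single probe, near the limit.

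Liver metabolism genes were detected in 5 of 22 cases, with UGT2B7 at 149 and 3.24, CPS1 at 86.0 and the other 3 under 64. TAT, OTC, ARG1, G6PC1, CYP2E1 and APOB were among the undetected.

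Gene families found by name ranged from nearly silent to complete. Of 361 olfactory receptors 31 were detected, and 26 of those were dim. Taste receptors (3 of 28), beta defensins (2 of 36) and type I interferons (1 of 13) were also families with few detected members, and of 3 immunoglobulin and T cell receptor segments none was detected. Potassium channels (30 of 113) and cytochromes P450 (20 of 64) each held a very bright gene, KCNN4 at 18283 and CYP2W1 at 91909, each on 1 probe. Keratins were detected in 27 of 55 cases and keratin-associated proteins, of hair, in 38 of 92. Clustered protocadherins were detected in 23 of 46 cases and solute carriers in 255 of 419. HOX names, of factors that pattern the body axis, were detected in 33 of 42 cases, led by HOXC9 at 2401 and HOXB9 at 2123. The families were found by name and hold some antisense names. With protein-coding members only, the counts were 27 of 94 potassium channels, 18 of 54 cytochromes P450, 243 of 382 solute carriers and 30 of 39 HOX genes. Zinc finger ZNF names were detected in 414 of 566 cases (73.1%), against 69.1% of protein-coding genes, with only 10 bright. With protein-coding members only, the count was 382 of 498 (76.7%). With a detected probe of at least 64, the share of the 566 names was 47%, against 56.1% of protein-coding genes.

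At the other end, all 36 complex I subunits and all 9 CCT chaperonin subunits were detected, 34 of 35 aminoacyl-tRNA synthetases, 37 of 39 proteasome subunits and 82 of 84 cytoplasmic ribosomal proteins. Of the ribosomal proteins 75 were bright. Among small nucleolar RNAs, which the array also carries, 188 of 285 were detected and 4 were bright. The brightest genes were ranked among names matched to RefSeq, with LOC, LINC, lnc, XLOC and database names left out. Some names outside this ranking were brighter than genes within it. Of the 30 brightest genes of the ranking, 21 were cytoplasmic ribosomal proteins and 4 were SNAR genes, a family of small RNAs. Whether a SNAR probe matches several copies was not tested. RNA28SN5, a 28S ribosomal RNA gene, had 231406. EIF1 and EEF1G, factors of translation, had 211095 and 134542, S100A6, a calcium-binding protein of many tumours, 186083, and SLC66A1, a lysosomal transporter of basic amino acids, 169523. These 5 were the remaining genes, so no melanocyte or pigment gene of the lists was among the 30.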

How the data were processed

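Total RNA of A375 cells was hybridised to 1 Agilent 1-colour array per condition, and only the NC array was described. Per the labels, the authors used Agilent Feature Extraction 10.7.1.1. The deposited scanner files hold intensity values, the processed signal after subtraction of the background, with marks for outliers and detection. The authors also deposited normalized log2 values, used as an alternative, and fold changes with a flag per probe, of which the fold changes were not used.

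Control spots and 147 spots marked as population outliers were left out, and no spot was marked as non-uniform or saturated. The log2 signals of repeated spots were averaged per probe. A gene was detected with 1 probe well above background. Symbols were updated through RefSeq (GRCh38.p14) by gene number or name, which matched 35782 of 58201 probes, while probe positions are those of the array annotation (hg19). Exons and UTRs were not analysed here. Members and the 37 lists and 20 families were chosen with earlier results of these data known. Of 1014 listed names, 7 had no match and are not analysed here. Some list members are counted but not reported here by name. Any other list member could be named. Each list gives its brightest members (up to 6), the dimmest detected and undetected members. Beside the lists stand the 30 brightest genes matched to RefSeq, without LOC, LINC, lnc, XLOC and database names.

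The number of arrays limits the precision. Depth has no meaning for an array. Alternatives were the 99th percentile of negative controls, the positive and significant mark, the authors' flag, outliers kept, most of a gene's probes required, a signal of at least 64, and, for brightness, other probe means, normexp (offset 50, limma 3.58.1) and the authors' values. The averaging of spots and the grouping of probes into genes were run on simulated data. The detection marks were given there, so that run could not test the marks. Scripts ran in Python 3.11.15 (pandas 2.3.3, matplotlib 3.10.9, scipy 1.17.1) and R 4.3.3.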

Additional observations from a re-analysis of the deposited data

Results flagged for a closer look

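Control probes with no human target were expected to stay at background, and a few did not. Of 96 ERCC control probes, which match synthetic spike-in RNAs, 2 were well above background in most of their spots, and the sources used here do not say whether such RNAs were added. The median signal was 126 for ERCC-00142 (9 spots) and 71.4 for ERCC-00148 (9 spots), against 3.06 as the median over the ERCC probes. Single spots of other ERCC probes were also well above background. Examples were 4 of 35 spots of ERCC-00012, and 2 of 9 of ERCC-00165, whose highest spot had 210. Spots marked as outliers were not left out of these control counts. Of 13 probes of the ETG control group, ETG09_35454 was well above background in 12 of 12 spots, with a median of 98.6. The cause was not tested. The median signals of ERCC-00142, ERCC-00148 and ETG09_35454 exceed those of several detected genes of the report, such as DCT, KIT and FN1.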

How the results depend on the processing

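Each count was recomputed under 6 alternatives for detection, and family counts also with protein-coding members only, an alternative chosen after seeing the data. With outliers kept, the authors' flag, or protein-coding members only, every count stayed within 1.5 times its value. The authors' flag gave the same number of detected probes, 24618, so it added little as a check. The share of protein-coding genes, 69.1% in the report, was 56.1% with a detected probe of at least 64, 60.7% with most probes required, 81.0% at the 99th percentile and 82.0% with the positive and significant mark, and each count below is to be read against the share of its setting. With a detected probe of at least 64, counts fell to 5 melanocyte lineage regulators, 2 endothelial, 2 leukocyte, 2 hepatocyte and muscle markers, 12 proteoglycan genes, 2 liver metabolism genes, 5 olfactory receptors, 19 keratin-associated proteins, 18 potassium channels, 10 cytochromes P450, 12 protocadherins and 266 ZNF genes. Taste receptors, beta defensins and type I interferons fell to 0. With most of a gene's probes required, there were 6 lineage regulators, 2 hepatocyte and muscle markers and 1 beta defensin. The positive and significant mark raised counts to 17 pigment genes, 5 fibroblast, 14 leukocyte, 10 hepatocyte and muscle markers, 11 liver metabolism genes, 116 olfactory and 9 taste receptors, 14 beta defensins, 3 type I interferons, 55 potassium channels, 38 cytochromes P450 and 2 immunoglobulin and T cell receptor segments (0 of 3 otherwise). With the 99th percentile of negative controls they were 17, 5, 13, 10, 8, 109, 9, 15, 3, 54, 37 and 2, in the same order. Pigment genes (50%) and leukocyte markers (53.3%) were below the protein-coding share in the report and above it under the last 2 settings, at 85% under both and at 93.3% and 86.7%. The other list counts stayed within 1.5 times under each alternative. Of the 3 brightest members of each list, the brightness percentile moved by over 24.7 points, the median range between probes of a gene, for 8 with the mean over all probes and for 0 under the other alternatives. A smaller move could still take a gene out of the brightest 10%, so the call of bright was not tested by this. No paired analysis was possible because there was 1 array per condition. With 1 culture, no value here has a biological error, and signals under 64 rest on spots whose repeats varied most.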

Other observations

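Some of the brightest signals came from 1 probe of a gene whose other probes were at background. AS3MT, an arsenic methyltransferase, had 96688 on 1 probe and 9.67 on the other. The bright probe lists transcripts of AKR7A2 and FOXK1 too. FUT6, a fucosyltransferase, had 94050 and 2.97, and the bright probe also lists VSIG1. PTK6, a kinase of epithelia, had 72181 and 11.1, and its bright probe also lists GGPS1. GPR155 had 82670, 7.12 and 3.76 on probes that list GPR155 alone, and SLC16A12 had 45826, 3.03 and 3.01. In all, 134 protein-coding genes had a probe among the brightest 10% and another not well above background, and for 11 of them the bright probe listed more than 1 gene. The part of shared sequence, of transcript forms or of other matches in these gaps was not tested.

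Over all probes, 1135 listed RefSeq transcripts of more than 1 gene, and 65.8% of them were detected, against 58.9% of 30238 probes that list 1 gene. Protein-coding genes with 1 probe were detected in 63.9% of cases, those with 2 probes in 77.5% and those with 3 or more in 83.8%. A list of genes with many probes therefore had more chances of a detected probe. Long noncoding RNAs were detected in 32.7% of 4182 cases.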
